A study of Mus musculus with 6 samples.

Results

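The barcodes called Ly6c2-high fetal monocytes here numbered 1188 in a pooled single-cell RNA matrix from a mouse study of embryonic osteoclast precursors. They were 3.43% of the 34587 barcodes kept (exact binomial 95% interval 3.25 to 3.63) and 4.22% of the 28127 kept barcodes with at least 1 Csf1r UMI. A UMI is the molecular tag by which captured RNA molecules are counted. Members were chosen by measured values, and the name is a label for that choice. It fits less well the 374 members rich in primary granule proteases, which are described below. A barcode had to hold at least 5 UMIs of Ly6c2, at least 3 of Mcemp1 and Hp together and at least 1 of Csf1r, with at most 2 of Cd34 and at most 2 of Mrc1 and Lyve1 together. It also had to hold under 5 UMIs per 10000 of the secondary granule genes Ngp, Camp and Ltf, and under 5 per 10000 of the interferon-induced genes Ifit1, Ifit3, Isg15 and Rsad2. Because the rule used the RNA of these same barcodes, every difference in gene level below is a description without a test. The other 26939 kept barcodes with a Csf1r UMI are the comparison class and are called other Csf1r-positive barcodes.

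The series holds 6 samples, labelled as 3 groups with 2 samples each. The first is Cx3cr1CreER; R26tdTomato embryos whose mothers received 4-hydroxytamoxifen at E9.5. The second is Csf1r-Mer-iCre-Mer; Csf1r-EGFP; R26tdTomato embryos, treated the same way at E8.5. Both were taken at E14.5, from whole bodies, as cells of the macrophage and monocyte lineage. The last group is total bone marrow of wildtype C57BL/6 mice aged 2 months, without the drug. In the embryos, Cre acts only while the drug is present and only in cells using the Cx3cr1 or the Csf1r promoter, so tdTomato marks those cells and what descends from them. Nothing in the labels says how many embryos or mothers stand behind a sample.

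The numbers 1 to 4 at the ends of the barcodes tell libraries apart but fit no name in the labels, so the matrix is 1 pooled sample of 4 unnamed libraries. The libraries are not replicates of a condition, genotypes cannot be compared, and whether adult cells are among the barcodes was not decided. Values are therefore given for each library or as the range over libraries 1 to 4. The libraries held 152, 163, 367 and 506 members, which were 1.82%, 2.31%, 5.10% and 4.23% of their kept barcodes, so members were more frequent in libraries 3 and 4. Kept libraries had 105177088 to 196452210 UMIs in all. Members had a median of 18987 UMIs and 3871.5 genes per barcode, against 14391 UMIs and 3489 genes in other Csf1r-positive barcodes. A total of 761 barcode sequences occurred in over 1 library. Of the members 45 had such a sequence, and 1 sequence was a member in more than 1 library. Doublets were not called.

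Ly6C-high monocytes are short-lived blood phagocytes made from bone marrow or, before birth, fetal liver progenitors. They leave their site of origin through the chemokine receptor Ccr2, enter tissue by means of adhesion molecules, and there can become macrophages or dendritic cells. On their way from progenitors, myeloid cells first make the proteases and peroxidase of primary (azurophilic) granules and later genes of the mature cell. Tissue macrophages of the embryo, many of which descend from the yolk sac, instead carry complement C1q, scavenger receptors and Mrc1.

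The 4 genes proposed to mark these cells were all higher in members. Levels are in CPM, a gene's UMIs scaled to the summed UMIs of its class, and since 3-prime tags count molecules and not fragments they are not divided by gene length. Ly6c2, the Ly6C surface antigen, stood at 1226 CPM in members and 74.4 CPM in other Csf1r-positive barcodes. Hp (haptoglobin) had 1162 against 147 CPM, and Mcemp1, a membrane protein of myeloid cells, 319 against 38.8 CPM. These 3 genes were in the rule. Csf1r, the receptor for CSF1 that every barcode of both classes had to hold, had 243, 279, 163 and 188 CPM in members of libraries 1 to 4, against 788, 881, 510 and 563 CPM, so members lay below the comparison class in each library. Ear2, an eosinophil-associated ribonuclease that the rule did not read, had 73.2, 97.6, 86.1 and 71.1 CPM in members of libraries 1 to 4, against 8.498, 8.562, 8.571 and 5.92 CPM in other Csf1r-positive barcodes. Ear2 was proposed as a marker with earlier results of these data known, so its higher level is not independent support for the name. The libraries of the classes did not overlap, yet Ear2 was far from uniform among members. At least 1 Ear2 UMI was found in 48.2% of members against 5.50% of other Csf1r-positive barcodes. After each barcode was thinned to 5000 UMIs the shares were 26.5% (exact binomial 95% interval 24.0 to 29.1) and 2.58%, and 0 of 319 in collagen-rich barcodes with no Csf1r or Ptprc UMI, which should lack the gene and allow a share of up to 0.940%. Ccr2 was detected in 90.3% of members and 43.0% of other Csf1r-positive barcodes without thinning. Other genes listed as classical monocyte genes were nearly absent from members, among them Chil3, a chitinase-like lectin, at 0.0806 CPM and Cd177 at 0.363 CPM. Both were also low in other Csf1r-positive barcodes, at 2.43 and 3.18 CPM, so their low level is not particular to members. Ly6c1 was at 0.161 against 0.136 CPM, but it is a near-identical neighbour of Ly6c2, so how reads were divided between them is uncertain.

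**Figure D1:**
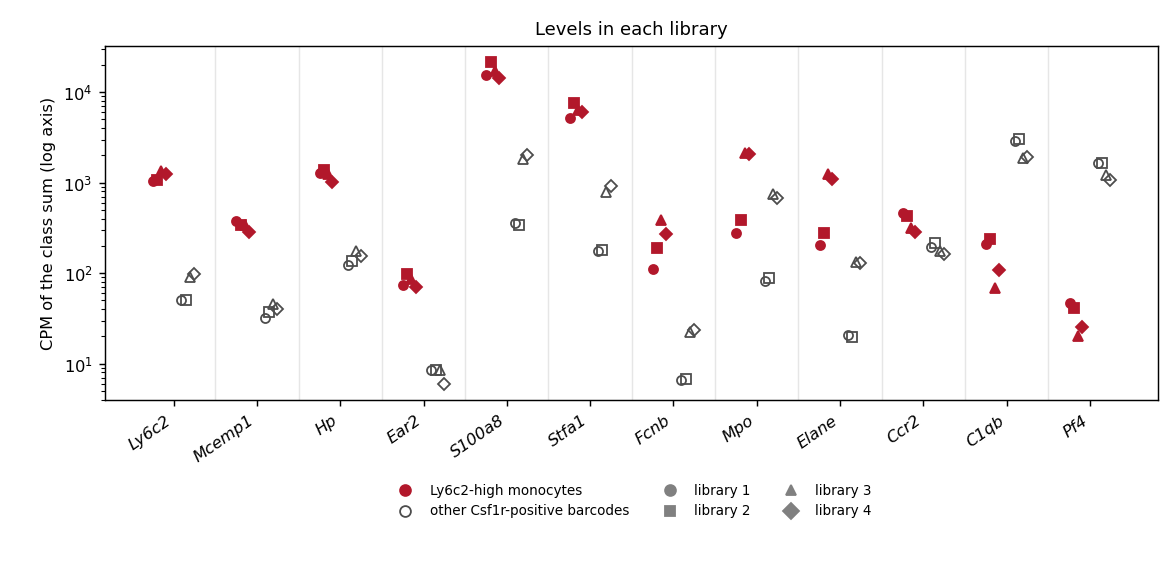
Levels of 12 genes in CPM on a log axis, with 1 symbol per library, for Ly6c2-high monocytes (filled) and other Csf1r-positive barcodes (open). All 4 member values of Ly6c2, Mcemp1, Hp, Ear2, S100a8, Stfa1, Fcnb and Ccr2 lay above the 4 open symbols, those of C1qb and Pf4 lay below them, and Mpo and Elane in members split into 2 low and 2 high libraries.

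Elane, Prtn3, Mpo and Ctsg, all of primary granules, recur through these results, and their promoters are shown first. They encode neutrophil elastase, proteinase 3, myeloperoxidase and cathepsin G. Their sequences are shown because members are split by these genes below. Each line gives 250 bases before to 50 bases after the gene's start, 5′ to 3′ on the gene's strand, from RefSeq on build GRCm38.p6. Elane lies at chr10:79886062-79886361 and Prtn3 at chr10:79879417-79879716, both on the plus strand with 6645 bases between the starts of their windows. Mpo lies at chr11:87793534-87793833 on the plus strand and Ctsg at chr14:56102525-56102824 on the minus strand.
Elane: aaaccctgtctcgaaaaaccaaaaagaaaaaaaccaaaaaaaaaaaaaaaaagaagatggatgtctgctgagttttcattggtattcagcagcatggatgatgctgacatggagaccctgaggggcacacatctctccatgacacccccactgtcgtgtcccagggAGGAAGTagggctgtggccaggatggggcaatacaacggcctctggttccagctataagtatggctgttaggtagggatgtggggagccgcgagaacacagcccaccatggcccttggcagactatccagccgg
Prtn3: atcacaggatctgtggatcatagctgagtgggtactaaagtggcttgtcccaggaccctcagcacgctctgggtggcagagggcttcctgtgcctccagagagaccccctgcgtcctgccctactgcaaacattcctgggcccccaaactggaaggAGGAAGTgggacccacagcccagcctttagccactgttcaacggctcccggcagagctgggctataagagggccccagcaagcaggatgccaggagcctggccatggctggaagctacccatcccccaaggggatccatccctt
Mpo: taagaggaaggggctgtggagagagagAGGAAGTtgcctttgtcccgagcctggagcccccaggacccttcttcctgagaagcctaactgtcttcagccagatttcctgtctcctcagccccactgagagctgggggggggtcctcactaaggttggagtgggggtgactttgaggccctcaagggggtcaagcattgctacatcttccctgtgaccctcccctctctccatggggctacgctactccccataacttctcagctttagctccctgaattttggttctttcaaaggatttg
Ctsg: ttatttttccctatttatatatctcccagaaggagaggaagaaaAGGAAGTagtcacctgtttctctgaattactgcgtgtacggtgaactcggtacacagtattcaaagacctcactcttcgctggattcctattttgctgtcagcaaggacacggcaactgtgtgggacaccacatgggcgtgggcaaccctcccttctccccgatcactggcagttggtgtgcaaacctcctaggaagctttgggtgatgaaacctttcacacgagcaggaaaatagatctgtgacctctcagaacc
Capitals mark AGGAAGT, a form of the purine-rich core bound by ETS-family factors such as PU.1, searched on both strands and chosen after the sequences had been seen. Each window held it 1 time, with its first base at position -84 from the gene's start in Elane, -94 in Prtn3, -223 in Mpo and -206 in Ctsg. Of all 32851 promoter windows of the same length 9.35% held the motif. Counted by gene it was in 10.7% of 27025 genes, in 5 of 13 of the genes named below as higher in members that had a window, and in 6 of 11 of those named as lower. Elane and Ctsg, whose windows were seen before the motif was chosen, are among those 5, so no enrichment is read from that count. A match is a description of the letters and not evidence that a factor binds there.

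Against other Csf1r-positive barcodes, members had higher levels of genes of neutrophil and monocyte granules, calgranulins and stefins, and lower levels of complement C1q and other tissue macrophage genes. Of 3056 genes compared, 110 (3.6%) were higher and 186 (6.09%) were lower. A gene counted here when it had at least 50 CPM in either class and at least a 2-fold difference in log2(CPM + 10), in the same direction in each library. The added 10 CPM makes differences of low genes look smaller than they were, and with pooled libraries and a rule that read these barcodes, the counts carry no p. Genes of the rule were not left out of these counts, so part of them follows from the rule.

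S100a8, a calcium-binding alarmin of neutrophils and monocytes, had the largest positive difference of the genes outside the rule. It reached 15548, 21659.6, 17158 and 14382 CPM in members of libraries 1 to 4, against 358, 345, 1821 and 2012 CPM in other Csf1r-positive barcodes. Its log2 difference was 3.75 for the pooled libraries and 2.83 to 5.93 within them. The members' levels were alike in the 4 libraries, and the comparison class was the higher in libraries 3 and 4. Barcodes rich in secondary granule genes numbered 13, 11, 410 and 1033 in libraries 1 to 4, counting those without a Csf1r UMI, and S100a8 stood at 86788 CPM in them. Leaving them out of the comparison class gave 113 higher and 186 lower genes. Its partner S100a9 had 3460 CPM in members and 608 CPM in other Csf1r-positive barcodes. S100a8 was also found at 5000 UMIs in 27.0% of the collagen-rich barcodes and in 29.4% of other Csf1r-positive ones, against 85.7% of members, so its share in the comparison class was close to that in barcodes that should lack it.

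Protease inhibitors and granule genes followed. Stfa1, a stefin that inhibits cysteine cathepsins, had 6204 CPM in members against 549 CPM, with a log2 difference of 3.47 (2.68 to 5.32 over libraries). Reads of the stefin A genes may be divided between near-identical copies, so single members of that cluster are uncertain. Fcnb (ficolin B, a lectin that starts the complement cascade) had 272 against 15.3 CPM, and Slpi, an inhibitor of elastase, 173 against 16.7 CPM. Elane stood at 921 CPM in members against 79.3 CPM, a log2 difference of 3.38 in the pool and 2.81 to 3.28 within libraries. Ctsg had 407 against 71.4 CPM and Ms4a3, a membrane protein of granulocyte and monocyte progenitors, 123 against 15.6 CPM. The log2 difference of Ctsg was 2.36 in the pool and 1.74 to 2.34 within libraries, and that of Ms4a3 2.38 and 1.13 to 2.20. For Elane, Ctsg and Ms4a3 the pooled difference thus lay above that of every library. All libraries agreed in direction for these genes, which was required for naming them.

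The remaining genes named as higher have roles in migration, clotting and metabolism. Ltb4r1, the leukotriene B4 receptor, had 216 CPM in members against 26.1 CPM in other Csf1r-positive barcodes, a log2 difference of 2.65. Clotting factor X (F10) had 94.8 against 8.30 CPM, and the glutathione transferase Mgst1 224 against 25.2 CPM. Gda (guanine deaminase) had 128 against 11.1 CPM, S100a6 819 against 151 CPM, and C1galt1c1, a chaperone of protein glycosylation, 277 against 46.8 CPM.

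Most genes named as lower are known from resident macrophages. Pf4, a chemokine of platelets that fetal macrophages also contain, had 28.8 CPM in members against 1369 CPM in other Csf1r-positive barcodes, a log2 difference of -5.15. The C1q chains C1qa, C1qb and C1qc stood at 54.5, 128 and 72.7 CPM against 1497, 2403 and 1848 CPM. The endocytic adaptor Dab2 had 20.1 against 690 CPM, the folate receptor Folr2 3.26 against 112 CPM, and the scavenger receptor Stab1 13.2 against 314 CPM. Ferroportin (Slc40a1), which exports iron, had 6.13 against 151 CPM, and the growth factor Igf1 5.28 against 132 CPM. The chemokines Ccl12 and Ccl7 had 10.0 and 7.33 CPM against 270 and 181 CPM. Fcrls, Gas6 and Ms4a7 were lower as well, at 18.98, 7.05 and 10.2 CPM against 570, 262 and 270 CPM. Maf, a transcription factor of resident macrophages, had 20.8 against 283 CPM. The rule's limit on Mrc1 and Lyve1 removed macrophages from the members, which bears on all of these genes. Against a comparison class held to the same limit, 71 genes were higher and 95 lower.

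Whole lists were read with a minimum of 10 CPM and the same 2-fold difference. By that measure 1.86% of 7561 genes were higher in members and 4.92% lower, and the median of all genes was -0.07 on the log2 scale. Of the list of classical monocyte genes 9 of 17 compared were higher and none lower, with a median of 1.18. They include Lyz2, the lysozyme of phagocytes, with 16354, 16844, 16618 and 13107 CPM in members of libraries 1 to 4, against 3938, 4473, 3645 and 3329 CPM. Thbs1 (thrombospondin) had 278 against 55.0 CPM, Vcan (versican) 46.0 against 6.41 CPM, and Plac8 2306 against 878 CPM. Ccr2 did not reach the 2-fold difference, with 466, 432, 318 and 282 CPM in members against 193, 215, 175 and 162 CPM, although every member library lay above every library of the comparison class. Among the nonclassical monocyte genes 2 of 10 were higher (Ear2 and Pglyrp1) and 2 lower. Ear2 was also among the proposed markers. The lower genes were Cx3cr1, the fractalkine receptor, at 34.7 against 293 CPM, and Cd36 at 2.62 against 59.4 CPM.

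**Figure D2:**
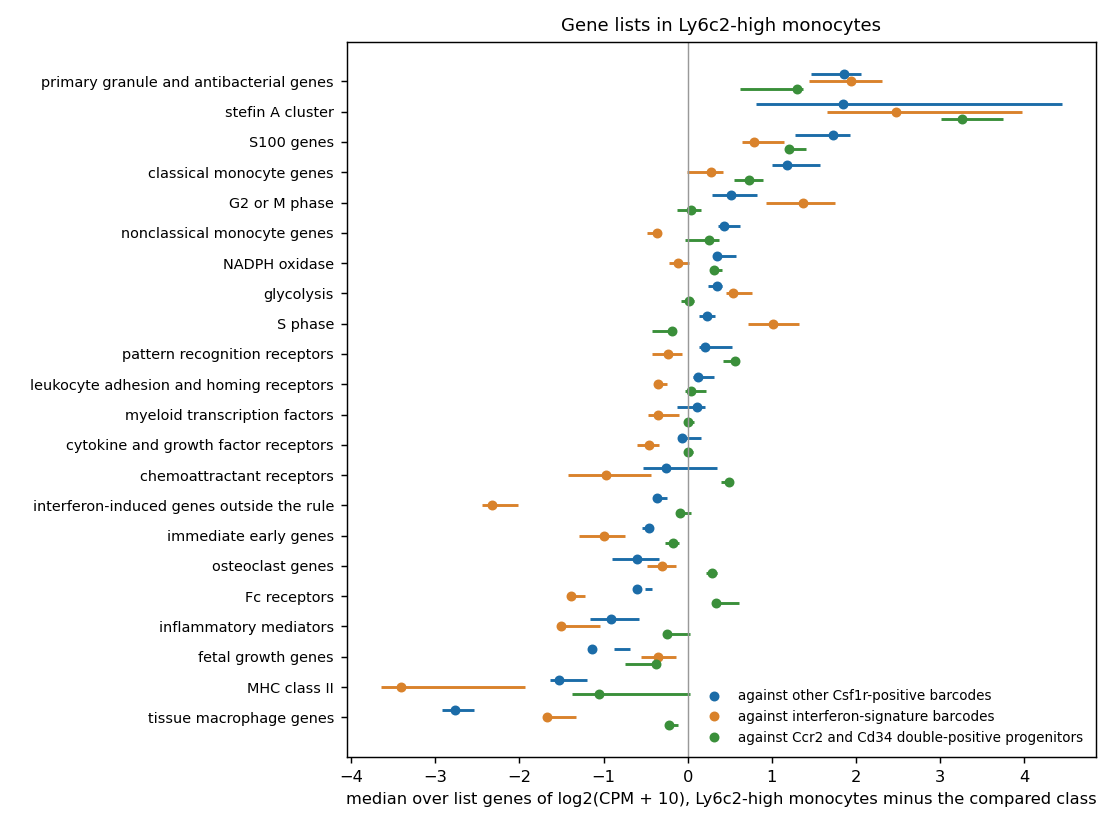
Median log2 difference of 22 gene lists, in log2(CPM + 10), between Ly6c2-high monocytes and each of 3 classes, as points for the pooled libraries and lines for the range over libraries. The stefin A, S100, primary granule and classical monocyte lists lay highest and the tissue macrophage list lowest against other Csf1r-positive barcodes; pooled medians of Fc receptors and fetal growth genes lie outside their library ranges.

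The S100, stefin A and primary granule lists were the effector lists with the highest medians. Of the S100 list 5 of 8 were higher (median 1.73), of the stefin A cluster 4 of 7 higher and 1 lower (1.84), and of the primary granule list 12 of 16 higher and 2 lower (1.86). The last pair were Mmp9 and Cd63. The stefin A median was 3.74 once barcodes rich in secondary granule genes left the comparison class, and 1.33 to 2.61 with 1 library left out. Of the receptors for chemoattractants 3 of 13 were higher and 3 lower. The higher ones were Ltb4r1, the formyl peptide receptor Fpr2 (66.9 against 11.1 CPM) and Cxcr4 (33.4 against 8.68 CPM). The log2 difference of Cxcr4 was 1.22 in the pool but 0.43 to 1.15 within libraries. The lower ones included Cx3cr1 and the complement receptor C3ar1 (18.6 against 190 CPM), and the list's median of -0.26 changed sign under other settings. Trem1, which amplifies inflammatory signals, had 44.4 against 7.88 CPM, and was 1 of 4 higher genes among 15 pattern recognition receptors, of which Tlr1 and Tlr7 were lower. NADPH oxidase genes had a median of 0.35, with 1 of 7 higher (Ncf4, 470 against 184 CPM). Fc receptors had a median of -0.60 (-0.51 to -0.43 within libraries) with 1 of 6 lower, the neonatal receptor Fcgrt at 67.5 against 345 CPM.

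Transcription factors of the myeloid lineage differed little as a list. Of 21 compared, 3 were higher and 2 lower, with a median of 0.11. Cebpe, which drives granule genes, had 52.2 against 8.31 CPM, Klf4, needed for monocytes in mice, 87.1 against 31.7 CPM, and Klf13 107 against 41.5 CPM. The lineage factors Irf8 and Spi1 (PU.1) were within 2-fold, at 300.2 and 555 CPM in members and 243.5 and 514 CPM in other Csf1r-positive barcodes. Maf and Tcf4 were the lower pair.

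Macrophage, antigen presentation and osteoclast genes were lower or similar. Of the tissue macrophage list 19 of 23 were lower (median -2.76) and of MHC class II 4 of 6 (-1.53). Against the comparison class held to at most 2 Mrc1 and Lyve1 UMIs these medians were -1.60 and -2.14, and that of Fc receptors was -0.20. Of the osteoclast list 3 of 8 were lower (-0.60). Tnfrsf11a, the receptor for RANKL through which osteoclasts form, had 3.83 CPM in members against 25.0 CPM, and the osteoclast protease Ctsk 0.725 against 15.3 CPM. Tnfrsf11a was also 1 of 4 lower genes among 21 cytokine and growth factor receptors. The fetal growth list had 4 of 7 lower, with a pooled median of -1.14 that lay below that of every library (-0.88 to -0.68). Of inflammatory mediators 5 of 14 were lower (-0.91), of immediate early genes 3 of 13 (-0.46), and of interferon-induced genes outside the rule 3 of 16 (-0.37). Without the protease-high members described below, the medians were -0.497 for inflammatory mediators, -0.00589 for immediate early genes and -0.00171 for interferon-induced genes, so the differences of the last pair of lists rested on those members. Leukocyte adhesion (2 of 14 higher, 1 lower, median 0.13), S phase (1 of 18 higher, 0.23), G2 or M phase (0 of 18, 0.52) and glycolysis (1 of 16 higher, 0.34) lay nearer to 0. The share of genes called lower was 4.92% over all genes, so 1 lower gene of 14, as in the adhesion list, is close to that background.

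Members were also set against a class of Csf1r-positive barcodes with an interferon signature. It comprised 631 barcodes that met the same limits on Cd34, Mrc1, Lyve1 and secondary granule genes, held a Ccr2 UMI and reached or exceeded the limit on interferon-induced genes. No minimum of Ly6c2, Mcemp1 or Hp was set for it, so the classes were chosen to differ in more than the interferon signature. Ccr2 stood at 334 CPM in members and 619 CPM in this class, which was chosen for it. Granule genes were higher in members and antigen presentation genes lower. Mpo stood at 1642 CPM in members and 46.5 CPM in interferon-signature barcodes, a log2 difference of 4.87. Elane had 921 against 30.3 CPM, Ctsg 407 against 4.99 CPM, Fcnb 272 against 5.76 CPM and S100a8 16243 against 911 CPM. Cd74, the invariant chain of MHC class II, had 94.7 against 1598 CPM and H2-Aa 12.5 against 274 CPM. C1qb stood at 128 against 2249 CPM. By the same rule as above 167 of 3094 genes (5.4%) were higher in members and 289 (9.34%) lower.

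Lists repeated this pattern. With the 10 CPM minimum 3.24% of 7341 genes were higher and 6.05% lower. Of interferon-induced genes outside the rule 18 of 19 were lower (median -2.32), which follows the way the classes were chosen. MHC class II genes were lower in 5 of 6 (-3.41), inflammatory mediators in 8 of 13 (-1.51), Fc receptors in 4 of 6 (-1.39) and tissue macrophage genes in 17 of 21 (-1.67). Higher were 12 of 15 primary granule genes (1.94), 5 of 6 stefin A genes (2.48), 17 of 18 genes of G2 or M phase (1.38) and 9 of 18 of S phase (1.01). Median depth differed between these classes, with 18987 UMIs in members and 12080 in interferon-signature barcodes.

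Progenitors with at least 1 Ccr2 UMI and at least 3 of Cd34 formed another class, with 3651 barcodes, and fewer genes set them apart from members. Of 2904 genes, 67 (2.31%) were higher in members and 17 (0.585%) lower. S100a9 had 3460 CPM in members against 153 CPM in progenitors, a log2 difference of 4.41, and S100a8 16243 against 1067 CPM. Stefin genes were higher, with Stfa1 at 6204 against 690 CPM, Stfa3 at 313 against 21.4 CPM and Stfa2l1 at 193 against 7.98 CPM. Lower genes included Id3, an inhibitor of differentiation factors, at 37.2 against 283 CPM (log2 difference -2.63). The D cyclins Ccnd2 and Ccnd1, which carry cells into S phase, had 12.9 and 8.26 CPM in members against 86.5 and 58.3 CPM. Ifitm1 had 79.4 against 318 CPM and Egfl7 12.7 against 51.1 CPM. Ccr2, for which the progenitors were chosen, had 334 against 304 CPM.

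In lists against progenitors, 1.24% of 7080 genes were higher and 0.325% lower. Of the stefin A cluster 5 of 6 were higher (median 3.26), of the S100 list 4 of 8 (1.20), of primary granule genes 10 of 15 (1.30) and of classical monocyte genes 6 of 17 (0.73). No gene of S phase (-0.19) or of G2 or M phase (0.04) passed the 2-fold difference, and 3 of 6 MHC class II genes were lower (-1.06). Progenitors had a median of 27237 UMIs per barcode.

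Members were not alike. Among genes with the widest spread between members, S100a8 had a median of 31 UMIs of 5000, with 0 at the 10th percentile, 284 at the 90th and 653 at the highest. The globin genes Hbb-bs and Hbb-y had still larger ratios of variance to mean, at 391 and 378, because few barcodes held very many: Hbb-bs had a median of 1 UMI and a highest value of 947. Lyz2 ranged from 12 to 186 UMIs between the 10th and 90th percentiles.

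Primary granule genes split the members. The summed UMIs of Elane, Mpo, Prtn3 and Ctsg at 5000 UMIs had a median of 2, 1, 4 and 4 in libraries 1 to 4 and a highest value of 48, 69, 205 and 223. Of the 1174 members deep enough, 268 had none, 549 had at most 2 and 374 had at least 10. Those 374 (24, 27, 131 and 192 by library) are called protease-high here, and the 549 (90, 101, 149 and 209) protease-low. The limits were set after the data had been seen and 84 members lay between 8 and 12 UMIs, so these are ranges of a count and not cell types. The protease-high share was 31.9% of members, 6.00% of other Csf1r-positive barcodes, 0.696% of interferon-signature barcodes and 25.7% of progenitors. At least 1 UMI of Prtn3 was found in 73.5% of members, of Mpo in 43.7%, of Elane in 38.2% and of Ctsg in 20.3%, against 6.58%, 6.27%, 2.82% and 1.57% of collagen-rich barcodes. Members' pooled levels followed the protease-high share, with Mpo at 277, 387, 2147 and 2053 CPM and Elane at 205, 277, 1250 and 1093 CPM in libraries 1 to 4. Both were low in libraries 1 and 2 and high in libraries 3 and 4.

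**Figure D3:**
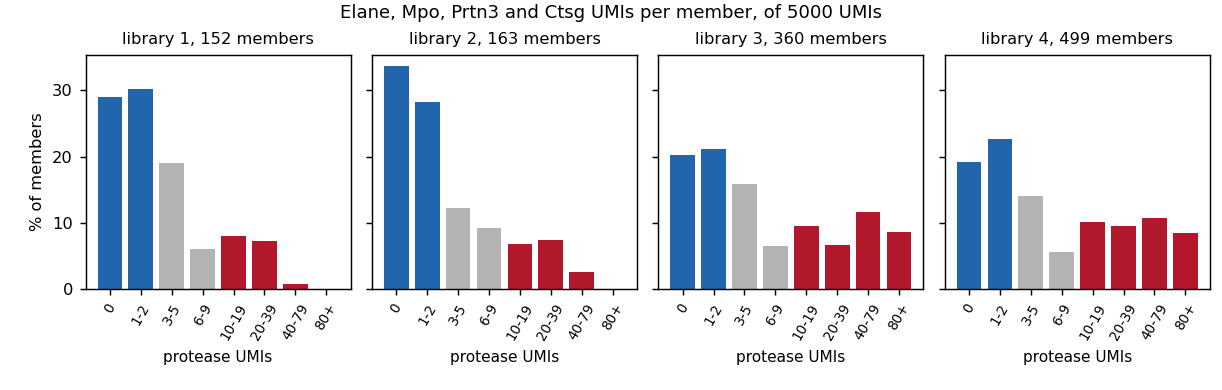
Percentage of members of each library by the UMIs of Elane, Mpo, Prtn3 and Ctsg together among 5000 UMIs, with at most 2 in blue, 3 to 9 in grey and at least 10 in red. At most 2 UMIs was the most frequent of these ranges in every library, and a tail up to 205 and 223 UMIs appears in libraries 3 and 4, against highest values of 48 and 69 in libraries 1 and 2.

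Protease-high members had lower levels of genes of the mature monocyte than protease-low members, and higher levels of a few progenitor and biosynthesis genes. Of 3024 genes 140 (4.63%) were higher and 276 (9.13%) lower. Ms4a3 had 91.7, 74.1, 256 and 317 CPM in protease-high members of libraries 1 to 4, against 0, 1.98, 0 and 0.957 CPM in protease-low members. Phgdh, the first enzyme of serine synthesis, had 326 against 31.7 CPM (log2 difference 3.01). The spermidine synthase Srm had 163 against 35.3 CPM, the kinase Cdk6 63.6 against 6.92 CPM, and Mif, a cytokine made by many cells, 1058 against 296 CPM. No library of one class overlapped the other for Ms4a3, Phgdh, Srm, Cdk6 or Mif.

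The lower genes include receptors, enzymes and secreted proteins of mature phagocytes. S100a6 had 308, 289, 160 and 136 CPM in protease-high members of libraries 1 to 4, against 2078, 1846, 1768 and 1781 CPM in protease-low members, a log2 difference of -3.39. The complement C5a receptor C5ar1 had 16.7, 7.41, 16.8 and 16.7 CPM against 251, 238, 217 and 206 CPM. Pla2g7, a lipase that inactivates platelet-activating factor, had 5.88 against 230 CPM and fibronectin (Fn1) 5.35 against 106 CPM. The signalling inhibitor Socs3 had 7.49 against 166 CPM, Wfdc17 43.3 against 710 CPM and Ifi27l2a 39.6 against 748 CPM. Lyz2 stood at 6415 CPM against 26834 CPM and was lower in each library. Ccr2 had 275, 222, 144 and 124 CPM against 596, 632, 574 and 514 CPM, again without overlap.

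Several other genes of these members stayed within 2-fold between the classes in the pooled libraries. S100a8 had 14609 CPM in protease-high and 19685 CPM in protease-low members, with log2 differences of -1.59 to 0.10 over libraries, and Stfa1 6589 against 6114 CPM. Irf8 had 342 against 272 CPM, Plac8 2640 against 2445 CPM and Ear2 71.7 against 77.2 CPM. Among the genes of the rule Ly6c2 stood at 1506 against 1016 CPM and Hp at 914 against 1563 CPM, whereas Mcemp1, at 196 against 495 CPM, was lower by more than 2-fold. Cd34, the progenitor antigen limited by the rule, had 38.0 against 26.6 CPM.

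**Figure D4:**
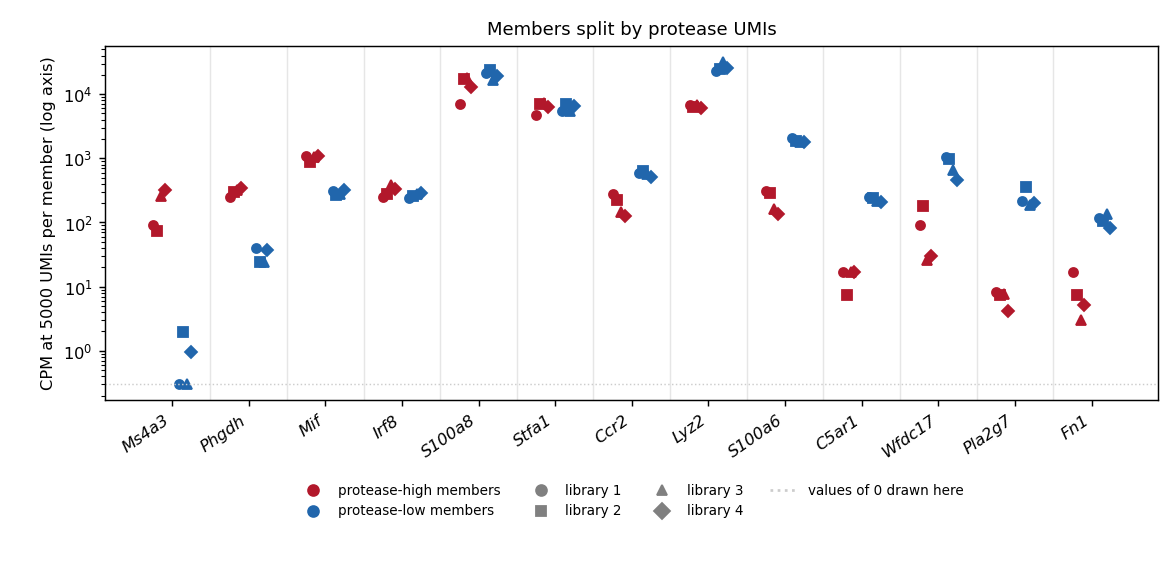
Levels of 13 genes in CPM at 5000 UMIs per member, on a log axis, with 1 symbol per library, for protease-high (red) and protease-low (blue) members. Ms4a3, Phgdh and Mif lay higher in every library of protease-high members, Ccr2, Lyz2, S100a6, C5ar1, Wfdc17, Pla2g7 and Fn1 lower, and Irf8, S100a8 and Stfa1 lay closer together.

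By lists, 2.98% of 7175 genes were higher in protease-high members and 5.67% lower, with a median of 0.02 for all genes. Of chemoattractant receptors 12 of 14 were lower (median -1.55). Fpr1 is an example, with no UMI in protease-high members of any library against 37.8, 33.7, 67.1 and 39.2 CPM in protease-low members, and Cxcr4 was an exception at 43.9 against 25.1 CPM, within 2-fold. Lower were also 11 of 16 classical monocyte genes (-1.84), 10 of 12 inflammatory mediators (-1.67), 9 of 14 interferon-induced genes (-1.49) and 9 of 13 immediate early genes (-1.50). The neutrophil attractant Cxcl2 had 106 against 769 CPM and the interferon regulator Irf7 11.2 against 112 CPM. Of transcription factors 9 of 20 were lower, with Nr4a1, a factor of nonclassical monocytes, at 41.7 against 195 CPM. The 1 higher factor was Myb, needed in mice for definitive haematopoiesis, at 21.9 against 2.19 CPM. It was at 0 in protease-high members of libraries 1 and 2. Of S phase genes 6 of 18 were higher (0.77), among them the helicase subunit Mcm2 at 135 against 51.4 CPM, whereas no gene of G2 or M phase (-0.10) or glycolysis (0.25) passed the 2-fold difference.

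Without the protease-high barcodes, members still differed from other Csf1r-positive barcodes in 148 higher and 179 lower genes. The primary granule list then had a median of -0.19 in place of 1.86, as leaving them out must lower it. Against progenitors the counts became 122 higher and 73 lower in place of 67 and 17, so the small number of genes that set members apart from progenitors rested in part on these 374 barcodes.

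Most members held RNA of cell-cycle genes. At least 3 UMIs of 36 genes of S, G2 or M phase were found at 5000 UMIs in 1072 of 1174 members, 91.3% (exact binomial 95% interval 89.6 to 92.9), with 90.1%, 82.2%, 91.7% and 94.4% by library. The share was 98.5% in progenitors, 83.5% in tissue macrophages, 83.2% in other Csf1r-positive barcodes and 60.2% in interferon-signature barcodes. It was 86.5% in collagen-rich barcodes, and the part of free RNA in these shares was not tested, so no rate of division is read from them. Of the members 70 lay at 2 or 3 UMIs. All 374 protease-high members passed, which the exact binomial 95% interval places at 99.0% or more, against 456 of 549 protease-low members, 83.1%.

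These 1072 members were set against the 102 with fewer than 3 cycle-gene UMIs. Of 2998 genes, with those used for the split left out, 280 (9.34%) were higher and 189 (6.3%) lower, and with the 10 CPM minimum 8.15% of 7104 were higher and 4.07% lower. Elane stood at 150, 219, 1053 and 873 CPM in members of libraries 1 to 4 with at least 3 cycle-gene UMIs, against 0, 0, 0 and 7.14 CPM in those with fewer. Mpo had 1294 against 13.7 CPM, and Pclaf and Stmn1, which accompany DNA replication and mitosis, 692 and 838 CPM against 17.6 and 47.1 CPM. Wfdc17 had 286 against 1639 CPM, the chemokine-binding receptor Ccrl2 89.7 against 525 CPM, and Apoe, an apolipoprotein of macrophages, 1288 against 6035 CPM. Of chemoattractant receptors 10 of 14 were lower (median -1.19) and of primary granule genes 7 of 15 higher (0.87). S100a8 was alike, at 18063 against 17212 CPM.

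A smaller share of members than of other Csf1r-positive barcodes held tdTomato RNA. At 5000 UMIs it was found in 195 of 1174 members, 16.6% (exact binomial 95% interval 14.52 to 18.9), with 15.8%, 17.2%, 16.9% and 16.4% by library. Without thinning the share was 44.6%. Collagen-rich barcodes with no Csf1r or Ptprc UMI, in which neither driver should act, had it in 39 of 319, 12.2% (8.84 to 16.3), with 9.17%, 10.0%, 9.68% and 19.5% by library. Median depths before thinning were 18987 UMIs in members and 10929 in collagen-rich barcodes. At this depth the pooled intervals overlap, and members lay above the collagen-rich barcodes in libraries 1 to 3 and below them in library 4. At 2000 UMIs members had 8.67% (7.13 to 10.4) and collagen-rich barcodes 3.07% (1.54 to 5.43), without overlap, and members lay above in every library, with 7.24%, 6.13%, 8.17% and 10.3% against 2.17%, 3.39%, 4.69% and 3.09%. Collagen-rich barcodes with a tdTomato UMI numbered 11 of 358 at that depth. The share in members was thus above or near that of the collagen-rich barcodes, depending on the depth, and it is not read as a labelled fraction.

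**Figure D5:**
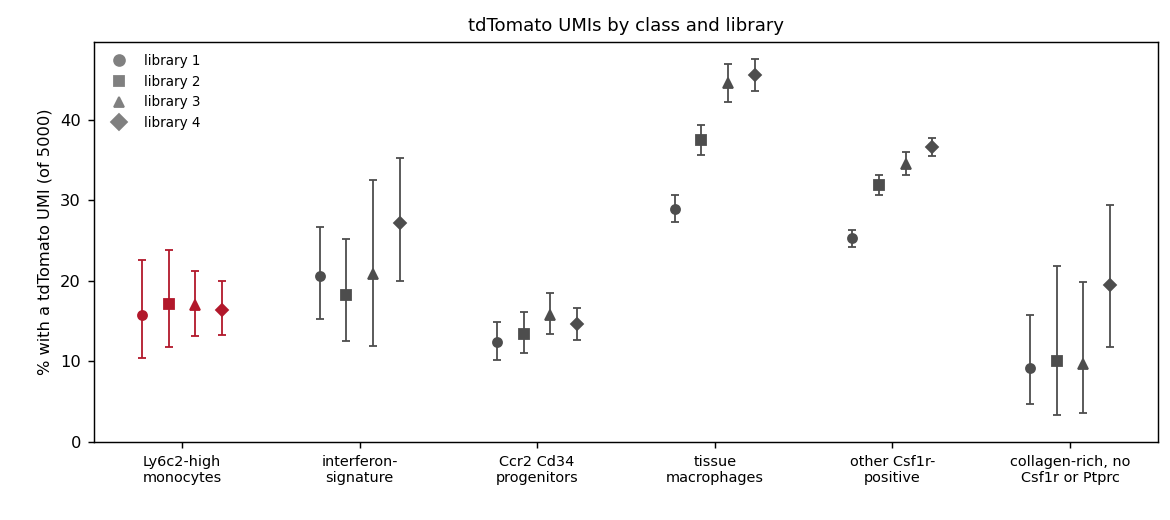
Percentage of barcodes with at least 1 tdTomato UMI among 5000 UMIs in each library, for members, interferon-signature barcodes, progenitors, tissue macrophages, other Csf1r-positive barcodes and collagen-rich barcodes. Members sit between 15.8% and 17.2% in all 4 libraries, above collagen-rich barcodes in libraries 1 to 3 and below them in library 4, and below other Csf1r-positive barcodes at 25.3% to 36.6%.

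The other classes were spread more widely. The share was 21.6% in interferon-signature barcodes, 14.2% in progenitors (12.4%, 13.4%, 15.8% and 14.6% by library), 38.2% in tissue macrophages and 31.9% in other Csf1r-positive barcodes (25.3%, 31.9%, 34.5% and 36.6%). In every library members had a lower share than other Csf1r-positive barcodes. Within members it was 13.1% (9.85 to 16.9) of protease-high and 19.5% (16.3 to 23.1) of protease-low barcodes, with overlapping intervals. Protease-high members lay lower in each library, with 12.5%, 18.5%, 11.5% and 13.5% against 18.9%, 20.8%, 19.5% and 19.1%.

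Members of different libraries differed in 62 of 2959 genes (2.095%) by at least 2-fold between the highest and lowest library. For 28 of these genes libraries 3 and 4 were the highest pair and for 24 libraries 1 and 2. Chil1, a chitinase-like protein, had 0, 0.312, 134 and 112 CPM in members of libraries 1 to 4, and Esr1, the oestrogen receptor, 0.967, 1.56, 76.7 and 84.8 CPM. Xist, which female cells transcribe, had 156, 181, 0 and 0.0863 CPM. The immediate early gene Egr1 had 120, 104, 23.2 and 23.7 CPM, and Wfdc17 543, 560, 226 and 150 CPM. Libraries 1 and 2 thus stood together against libraries 3 and 4 in most of these 62 genes, also in the protease genes, and what set the pairs apart was not given in the labels. The globin gene Hbb-y, which had the largest ratio between libraries, did not follow the pairs, at 26.1, 8.42, 1.59 and 224 CPM. Neither did Hbb-bs, at 253, 1534, 318 and 473 CPM. Genes of mast cells followed the same pairs, with Cma1 at 5.80, 5.92, 183 and 56.8 CPM in members.

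Markers of other cell types were summed over fixed lists. Progenitor markers summed to 4623 CPM in members (1399 to 5691 over libraries) against 974 CPM in other Csf1r-positive barcodes. Nearly all of the members' sum came from Mpo, Prtn3, Elane and Ctsg, at 1642, 1631, 921 and 407 CPM. The difference between the progenitor sums thus rested on the protease genes. Neutrophil markers summed to 19851 CPM (17499 to 27304) against 1926 CPM. S100a8 and S100a9 made up nearly all of both sums. They had 16243 and 3460 CPM in members and 1197 and 608 CPM in the comparison class. The difference between the neutrophil sums thus rested on S100a8 and S100a9. Mast cell markers summed to 184 CPM (10.3 to 361) against 590 CPM, erythroid markers to 1746 CPM (680 to 3851) against 3699 CPM, and hepatocyte markers to 203 against 543 CPM. Dendritic cell markers summed to 18.9 against 111 CPM, B cell markers to 45.9 against 109 CPM, microglia markers to 141 against 552 CPM and Kupffer cell markers to 148 against 870 CPM. T and NK cell, megakaryocyte, endothelial, mesenchymal and neural markers summed to 10.2, 1.85, 2.18, 15.8 and 7.09 CPM. Pax5, Cd3e, Cd8a, Klrb1c, Tek, Sox2 and Vsig4 had no UMI in members. The part that free RNA or doublets had in any of these sums was not tested.

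The rule's steps removed barcodes unevenly. Of 34587 kept barcodes 2997 had at least 5 Ly6c2 UMIs, and the limit on Cd34 alone removed 1060 of the 2481 that still passed when it was applied. Members' raw Ly6c2 count had a median of 18 UMIs (6 at the 10th and 58 at the 90th percentile). At the threshold itself, the 83 members with exactly 5 Ly6c2 UMIs had 4076 CPM of S100a8, 35.1 of Ear2, 572 of Ccr2 and 17295 of Lyz2. The 97 barcodes with 4 that met the rest of the rule had 3921, 26.6, 564 and 15136 CPM of these genes, so the limit cut through similar barcodes. Both had less S100a8 than the 16243 CPM of all members.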

How the data were processed

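The deposited values are raw UMI counts from 10x Genomics 3-prime sequencing of single mouse cells, held in 1 matrix with 31054 genes or other features in rows and 39048 barcodes in columns. The authors wrote it with Cell Ranger 3.0.1, per the file headers, and per the submitters' processing notes used Cell Ranger 2.1.1 and build mm10. Any subsampling of reads to even out libraries is not stated in the labels. The members, gene lists and classes were chosen with earlier results of these data known, so no list or rule is independent of them.

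Kept barcodes had at least 1000 UMIs, at least 500 genes and at most 10% mitochondrial UMIs, and 4461 did not. Doublets were not called. Comparison classes were set by raw UMIs. Interferon-signature barcodes and progenitors had at least 1 UMI each of Csf1r and Ccr2 and met the member rule's upper limits, except that on interferon-induced genes for the first and that on Cd34 (at least 3) for the second. Tissue macrophages had at least 5 of Mrc1 and Lyve1, and collagen-rich barcodes at least 20 collagen UMIs. CPM are sums over a class, or over a class in 1 library, with exact Poisson 95% intervals computed for each. For shares the interval is the exact 95% Clopper-Pearson one, and for a share of 0 the limit is 3 counts. Intervals and limits cover counting error only. Shares and splits used barcodes thinned to 5000 UMIs, which left out 14 members, 3018 other Csf1r-positive and 44 collagen-rich barcodes. Named genes were the 15 highest and 15 lowest called genes against other Csf1r-positive barcodes and in the protease split, 6 each way for the other classes, and list members past the 2-fold difference. Other genes were named after their values were seen. Genes of the rule, ribosomal and mitochondrial genes were left out when the named genes of the class comparisons were picked. They were not left out of the counts of called genes. Genes of the rule were also left out of the lists. With 1 pooled sample no test was run: the tests across samples planned for a mapped matrix had no mapped samples. The calls were tested on simulated counts. The analysis used Python 3.11.15, numpy 2.4.6, scipy 1.17.1 and pandas 2.3.3. Alternatives covered the pseudocount, the CPM minimum, equal library weights, each library left out, the Ly6c2 limit, depth, the comparison class and the thinning depth. Those on the protease limits, granule-rich barcodes and protease-high members were chosen after seeing the data.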

Additional observations from a re-analysis of the deposited data

Results flagged for a closer look

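Among the 4461 barcodes that the quality filter removed, 5 met the rule for Ly6c2-high monocytes. A count above 3 was flagged, and no excess is read from it. All 5 had over 10% mitochondrial UMIs, with a median of 6216 UMIs. They came from libraries 2, 3 and 4 (1, 1 and 3 barcodes) and had 6475 CPM of S100a8 and 438 CPM of Ccr2. They are in no comparison above.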

How the results depend on the processing

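Of 121 alternative values of the main results 99 stayed within 1.5 times the count, or within the interval of the share, and 22 did not. Genes lower than in other Csf1r-positive barcodes became 366 with a minimum of 10 CPM and with no minimum, and lower than in interferon-signature barcodes 438 under both. Against a class held to at most 2 Mrc1 and Lyve1 UMIs there were 71 higher and 95 lower. Genes lower than in progenitors became 26 with a pseudocount of 1 CPM and 28 within 5000 to 30000 UMIs, and without protease-high members 122 were higher and 73 lower. Members were 2.86% of kept barcodes with at least 8 Ly6c2 UMIs and 3.82% within 5000 to 30000 UMIs. The tdTomato share was 8.67% at 2000 UMIs (3.07% in collagen-rich barcodes) and 44.6% unthinned (21.5%). The share of members past the cycle-gene minimum was 87.6% at 5 UMIs and 85.4% at a depth of 2000 UMIs. With at least 20 against 0 protease UMIs 223 genes were higher. The primary granule list's median turned to -0.19 without protease-high members. The medians of the transcription factor, chemoattractant receptor, cytokine receptor and adhesion lists, 0.11, -0.26, -0.06 and 0.13, changed sign under some setting, so their direction is not read.

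Leaving out 1 library at a time gave member shares of 2.997% to 3.951%, tdTomato shares of 16.5% to 16.7%, cycle-gene shares of 89.0% to 92.8%, and 100 to 125 higher and 171 to 204 lower genes against other Csf1r-positive barcodes. Against interferon-signature barcodes the ranges were 154 to 191 and 283 to 298, against progenitors 65 to 72 and 14 to 19, and in the protease split 137 to 163 and 274 to 291. Where a cause is not given by the setting itself, the cause was not tested. No paired analysis was possible because the barcode numbers match no sample label. Genes under about 10 CPM and classes of few barcodes are limited by depth.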
